A study of Mus musculus with 6 samples.

Results

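Cxcl9-expressing macrophages are macrophages of mouse colon tumours that carried transcripts of the T cell-attracting chemokine Cxcl9. Members were chosen from single-cell RNA counts by a fixed gate. A cell barcode needed at least 200 genes, at most 10% of UMIs (unique molecular identifiers, each standing for 1 captured RNA molecule) from mitochondrial genes, and at least 3 UMIs summed over Csf1r, Adgre1, C1qa, C1qb and C1qc, which encode a growth factor receptor, a surface protein and the complement C1q chains of macrophages. It also needed under 2 UMIs of Ly6c2 (monocytes), under 2 of Cd209a, under 2 of Xcr1 and Clec9a together (both dendritic cell genes), none of Siglech, Cd3d, Cd3e, Cd3g and Cd79a (plasmacytoid, T and B cell genes), under 5 of Arg1 (arginase 1), and at least 3 of Cxcl9. Of 34607 barcodes in 6 libraries, 33862 passed the limits on genes and mitochondrial UMIs, 4040 were macrophages by the gate before Arg1 and Cxcl9 were applied, and 727 were members. The 2 comparison classes were the 1787 gated macrophages with under 5 Arg1 and under 3 Cxcl9 UMIs (Arg1-low Cxcl9-low) and the 1526 with 5 or more Arg1 UMIs (Arg1-high), whatever their Cxcl9.

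The study set SOX17KO colon tumours beside Control colon tumours. The labels give 1 SOX17KO and 1 Control library at 1 week, the same pair at 2 weeks, and a pair with no time, and they do not say what the weeks are counted from, on what background the tumours arose or in which cells SOX17 was deleted. Each library held tumours of 5 mice pooled per condition, from which live, EpCAM-negative, CD45-positive cells (leukocytes without epithelial cells) had been sorted and run on the 10x Genomics 3' v3 chemistry. A library is therefore 1 pooled sample, with no separate values for single mice. The p-values across genes below come from 4 such libraries. They set a difference against a spread between libraries that is estimated partly over all genes. That shared part weighs most where few residual degrees of freedom are left.

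Cxcl9 is a chemokine that interferon-gamma induces in macrophages and other cells, and its receptor Cxcr3 sits on activated T cells and natural killer cells. Interferon-gamma acts through the receptor chains Ifngr1 and Ifngr2 on genes that hold GAS elements and, through Irf1 and related factors, raises a second set of genes. Among those are the guanylate-binding proteins (Gbp) and immunity-related GTPases (IRG), which attack vacuoles that hold microbes, and the machinery that loads peptides on MHC class I. Macrophages with high Cxcl9 are known from tumours of several tissues, where they are often set against macrophages rich in Spp1 or Arg1.

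The 4 timed libraries held 726 of the 727 members, 346 in SOX17KO at 1 week, 271 in Control at 1 week, 49 in SOX17KO at 2 weeks and 60 in Control at 2 weeks. The untimed SOX17KO library held 1 member and the untimed Control library none among 58 and 61 gated macrophages, so this pair stands apart and enters no test across genes. Library totals ran from 18281322 to 52150180 UMIs. The targeted gene could not be checked in sorted leukocytes: Sox17 had 4, 20 and 3 UMIs in the SOX17KO libraries (untimed, 1 week, 2 weeks) and 7, 11 and 10 UMIs in the Control ones. Between 4 and 13 barcode sequences were shared by each pair of libraries, and none was a member in 2 of them. A simulated-doublet score placed 23, 6, 0 and 2 members of the 4 timed libraries among the top scores, in the order SOX17KO 1 week, Control 1 week, SOX17KO 2 weeks and Control 2 weeks. That order holds for every set of 4 library values below.

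The members passed as macrophages on the genes that the gate used. A Csf1r UMI was present in 84.4, 82.3, 89.8 and 83.3% of them and a C1qb UMI in 72.3, 70.5, 75.5 and 68.3%, while 8 to 51 members per library sat at the gate's minimum of 3 summed macrophage UMIs. A gene outside the gate gave a like picture. Fcgr1, the high-affinity IgG receptor of macrophages, stood at 319, 406, 249 and 276 CPM (UMIs per 1000000 of all UMIs summed over the class in a library). The dendritic cell genes Flt3 and Zbtb46 had a UMI in at most 2.6 and 2.9% of members in any library. A list of 8 dendritic cell genes that holds both had 3 or more UMIs in 4.9, 3.3, 2.0 and 0% of members. The same was seen in 2.3, 1.7, 3.7 and 3.4% of Arg1-low Cxcl9-low and 1.4, 1.8, 0 and 0.7% of Arg1-high macrophages. Ly6c2 was allowed at 1 UMI and was found there in 126, 102, 15 and 27 members. A list of 6 monocyte genes had 3 or more UMIs in 96.5, 96.3, 79.6 and 96.7% of members, so most members held monocyte transcripts. That was so in 87.6, 90.3, 72.5 and 88.1% of Arg1-low Cxcl9-low and 97.9, 97.8, 86.0 and 92.9% of Arg1-high macrophages. The third label marker, the interferon-inducible GTPase Gbp2b, did not set the members apart. It stood at 141, 104, 56.9 and 88.5 CPM in Cxcl9-expressing macrophages, against 72.1, 80.1, 108 and 102 CPM in Arg1-low Cxcl9-low and 52.8, 53.3, 100.5 and 105 CPM in Arg1-high macrophages. Members were higher at 1 week and lower at 2 weeks, and edgeR's quasi-likelihood test called it against neither class (adjusted p = 0.384 and 0.266).

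Cxcl9 itself chose the members, so its values are a description. Members had a median of 13, 9, 8 and 10.5 Cxcl9 UMIs per cell and at most 163, 93, 49 and 53. Just inside the threshold, at exactly 3 UMIs, lay 25, 30, 12 and 7 members, and just outside it, at 2 UMIs, lay 37, 29, 14 and 19 cells that otherwise met the rule. As a sum over cells, Cxcl9 reached 3103, 2512, 1858 and 3026 CPM in Cxcl9-expressing macrophages, against 34.0, 36.8, 50.5 and 92.1 CPM in Arg1-low Cxcl9-low macrophages. Arg1-high macrophages, for which Cxcl9 was not limited, lay between them at 339, 521, 335 and 466 CPM. Most of the Cxcl9 in these libraries of sorted cells lay outside the members. They held 14.02, 11.7, 10.2 and 11.1% of each library's Cxcl9 UMIs, while barcodes with 2 or more Ly6c2 UMIs held 47.5, 46.3, 37.4 and 33.9%. Barcodes outside the macrophage classes that reached neither the Ly6c2 nor the Xcr1, Clec9a and Cd209a limits held 30.3, 31.8, 45.0 and 42.3%. The Ly6c2 limit alone kept out 649, 418, 69 and 59 barcodes that met every other condition. A Cxcl9 UMI was also found in 7.63, 5.19, 2.68 and 2.45% of barcodes with T cell genes, that is in 9, 4, 19 and 50 barcodes, of which 6, 3, 10 and 31 held 3 or more (median 5144, 5219, 5620 and 5070 UMIs), against 35.7, 40.8, 32.1 and 38.7% of gated macrophages (median 6802, 5822, 4803.5 and 3439 UMIs). The source of Cxcl9 in T cell barcodes was not tested.

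The first comparison asks whether Cxcl9-expressing macrophages were a different share of macrophages in SOX17KO tumours. They made up 19.0% of 1819 gated macrophages in SOX17KO at 1 week (95% Clopper-Pearson interval 17.2 to 20.9), against 20.1% of 1351 in Control at 1 week (18.0 to 22.3). At 2 weeks they made up 13.1% of 374 in SOX17KO (9.85 to 16.9), against 15.9% of 377 in Control (12.4 to 20.0). The untimed pair gave 1 of 58 in SOX17KO (1.72%) and 0 of 61 in Control, whose interval reaches 5.87%. These intervals cover counting error only. The intervals overlapped within each pair, and the log2 odds ratio, SOX17KO over Control, was -0.10 at 1 week and -0.33 at 2 weeks, with 0.5 added to each count (mean -0.21). As a share of all barcodes past the limits on genes and mitochondrial UMIs, members were 4.73% in SOX17KO and 4.93% in Control at 1 week, and 1.63% in SOX17KO and 1.25% in Control at 2 weeks, so the 2 week direction turned, with a log2 odds ratio of 0.38. The untimed pair compares 1 member with 0, and its log2 odds ratio is set by the added 0.5, so no mean or test that includes it is read. With 2 pairs, an exact two-sided sign-flip permutation test cannot give a p below 0.5, and with 3 none below 0.25. Thinned to 3000 UMIs per cell, 21.4% of SOX17KO and 22.8% of Control gated macrophages kept a Cxcl9 UMI at 1 week, and 22.6% of SOX17KO and 30% of Control ones at 2 weeks.

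Cxcl9 summed over all gated macrophages came to 761 CPM in SOX17KO and 728 CPM in Control at 1 week, and to 446 CPM in SOX17KO and 772 CPM in Control at 2 weeks. SOX17KO over Control, that is a log2 ratio of 0.06 at 1 week (counting interval 0.02 to 0.11) and -0.79 at 2 weeks (-0.92 to -0.67). The lower value at 2 weeks rests on 1 library of each genotype. The mean over both timed pairs was -0.36. In the untimed pair SOX17KO had 5 Cxcl9 UMIs (18.2 CPM) and Control had none, and no ratio is given. As 2 weeks over 1 week, the log2 ratio was -0.77 in SOX17KO (-0.87 to -0.67) and 0.09 in Control (-0.01 to 0.18).

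**Figure D1:**
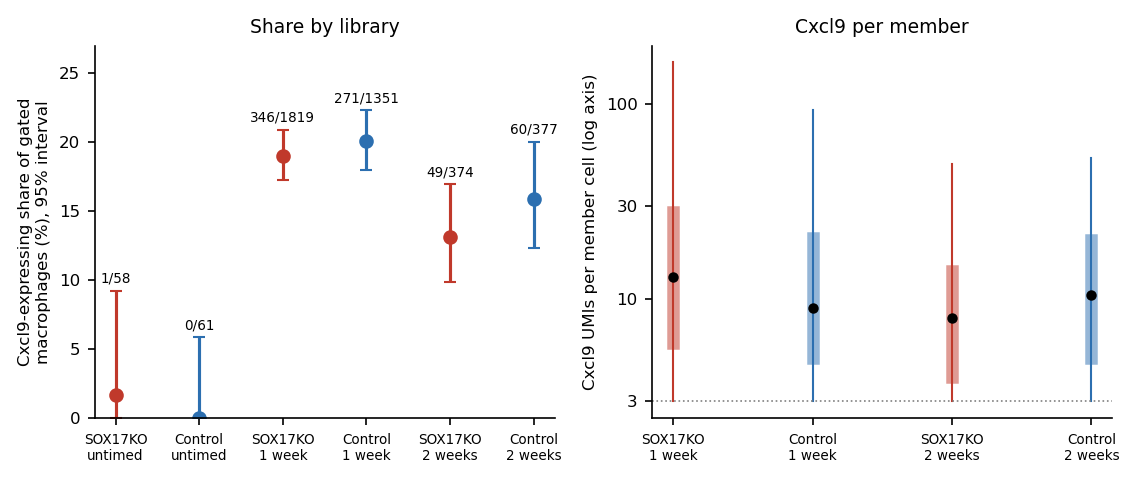
Left, the percent of gated macrophages that were Cxcl9-expressing in each of the 6 libraries, with 95% Clopper-Pearson intervals and the counts. Right, Cxcl9 UMIs per member cell on a log axis in the 4 timed libraries (point, median; box, quartiles; line, range; dotted line, the threshold of 3). The share was 19.0 and 20.1% at 1 week and 13.1 and 15.9% at 2 weeks in SOX17KO and Control, with 1 and 0 members in the untimed pair.

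The second comparison asks what else distinguished Cxcl9-expressing macrophages from their neighbours. UMIs were summed per library and class, and edgeR's quasi-likelihood test compared members with each other class within the 4 libraries. The classes were split on Cxcl9 and Arg1 in the same cells. Against Arg1-low Cxcl9-low macrophages, a gene that varies with Cxcl9 from cell to cell differs through that split. Against Arg1-high macrophages, the same holds for a gene that varies with Arg1 or Cxcl9. The test asks only whether the difference recurs over libraries. Against Arg1-low Cxcl9-low macrophages, 380 of 8972 genes were higher (4.24%) and 290 lower (3.23%) at an adjusted p under 0.05. Against Arg1-high macrophages, 267 of 8583 were higher (3.11%) and 353 lower (4.11%). Of 8469 genes tested in both, 140 were higher in both and 101 lower in both. The count of calls against Arg1-low Cxcl9-low macrophages, 670 in all, was 330 without the SOX17KO 1 week library and 345 without the Control 1 week library. The 620 calls against Arg1-high macrophages were 229 and 386 without those libraries. Members had more UMIs per cell than Arg1-low Cxcl9-low macrophages in all 4 libraries, with medians of 6361.5, 5652, 6399 and 4120 against 5435, 5086, 4411 and 3199, and 591 genes were called with comparison cells matched on UMIs. Arg1-high macrophages had medians of 8389, 6729.5, 4771 and 3269, above members at 1 week and below them at 2 weeks. With Arg1-high cells matched on UMIs, 246 of 8251 genes were higher in members and 318 lower.

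Cxcl10, Ccl5 and Cxcl16, chemokines whose receptors are found on activated T cells, were higher in members. Cxcl10, a sister gene of Cxcl9 that binds the same receptor, stood at 1853, 2199, 668 and 1264 CPM in Cxcl9-expressing macrophages, against 754, 1173, 261 and 161 CPM in Arg1-low Cxcl9-low ones. It was higher within every library by 1.87-fold or more, although the 2 classes overlapped between libraries, since both held less of it at 2 weeks (log2 fold change 1.54 ± 0.21 (SE), adjusted p = 0.000517 by edgeR's quasi-likelihood test). Ccl5, a chemokine that draws T cells, stood at 535, 803, 449 and 439 CPM in Cxcl9-expressing macrophages, against 96.0, 138, 262 and 291 CPM, and the classes did not overlap (1.77 ± 0.28, edgeR adjusted p = 0.00143). The Ccl5 difference was smaller at 2 weeks, with log2 ratios of 0.78 in SOX17KO and 0.59 in Control, than at 1 week, with 2.48 in SOX17KO and 2.54 in Control. Of 17 chemokine genes tested, 4 were higher and 6 lower (median log2 fold change -0.19, against -0.0041 over all genes tested). The other higher ones were Cxcl16 and the eotaxin Ccl24. The lower ones include ligands known for drawing neutrophils (Cxcl2, Cxcl3) and monocytes (Ccl2). Ccl6 stood at 639.9, 686, 659 and 768 CPM in Cxcl9-expressing macrophages, against 1386, 1275, 1145 and 984 CPM, with no overlap (-0.79 ± 0.10, edgeR adjusted p = 0.000304). Ccl9, Ccl3, Ccl2, Cxcl2 and Cxcl3 fell by 0.78, 0.89, 0.50, 0.72 and 1.13 on the log2 scale. Ccl8, a monocyte attractant, was abundant at 1 week in both classes and did not pass (-0.08 ± 0.38, edgeR adjusted p = 0.961).

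Interferon-inducible GTPases were higher in members, 12 of 16 with none lower (median log2 fold change 0.78). Gbp2, the most abundant of them, stood at 2004, 1884, 1393 and 2283 CPM in Cxcl9-expressing macrophages, against 1045, 905, 451 and 794 CPM in Arg1-low Cxcl9-low ones. Every member value was above every comparison value (log2 fold change 1.29 ± 0.10 (SE), adjusted p = 1.31e-05 by edgeR's quasi-likelihood test). Iigp1, an IRG that coats parasite vacuoles, stood at 515, 477, 269.7 and 368 CPM in Cxcl9-expressing macrophages, against 243, 236, 107 and 96.5 CPM, again with no overlap (1.28 ± 0.12, edgeR adjusted p = 4.73e-05). Gbp7 and Gbp3 rose by 0.72 and 0.68 on the log2 scale. Irf8, a partner of Irf1 in myeloid cells, stood at 412, 447, 476 and 524 CPM in Cxcl9-expressing macrophages, against 259, 273, 227 and 227 CPM (0.90 ± 0.10, edgeR adjusted p = 0.000158). Members and comparison cells did not overlap in it. The feedback inhibitors Socs1 and Socs3, named after their values were seen, rose as well, by 1.07 and 0.44. Irf1, at 436, 487, 372 and 538 CPM against 385, 424, 308 and 351 CPM, was higher in all 4 libraries and just missed the threshold (0.33 ± 0.09, edgeR adjusted p = 0.0515). The receptor chain Ifngr1 went the other way, at 140.1, 114, 201 and 205 CPM in Cxcl9-expressing macrophages, against 229.9, 195, 398 and 294 CPM (-0.72 ± 0.10, edgeR adjusted p = 0.000747). Of 13 genes of the receptor and its signalling, 7 were higher and 1, Ifngr1, lower. Among type I interferon-stimulated genes, which share many control elements with the above, 10 of 21 were higher and none lower, led in level by Ifi204, Zbp1, Isg15 and Ifi203, of which Isg15 stood at 422, 802, 177 and 322 CPM in Cxcl9-expressing macrophages, against 249.9, 432, 48.6 and 175 CPM (1.00 ± 0.13, edgeR adjusted p = 0.000385).

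The 300-base windows around the gene starts show the letters near which such factors could bind. They run from 250 bases before to 50 after the annotated start, in RefSeq's GRCm38.p6, 5′ to 3′ on the gene's strand. Capitals mark matches to TTCNNNGAA (GAS, which reads the same on both strands) or GAAANNGAAA (ISRE, searched on both strands). The genes shown are Cxcl9 and Cxcl10, 3 interferon-inducible GTPases and Serpina3g, a serpin that was among the genes most raised in members. Windows were taken at chr5:92328030-92328329, minus strand, for Cxcl9; chr5:92348840-92349139, minus strand, for Cxcl10; chr3:142620413-142620712, plus strand, for Gbp2; chr3:142496684-142496983, plus strand, for Gbp5; chr11:58199306-58199605, plus strand, for Igtp; and chr12:104235897-104236196, plus strand, for Serpina3g.
Cxcl9: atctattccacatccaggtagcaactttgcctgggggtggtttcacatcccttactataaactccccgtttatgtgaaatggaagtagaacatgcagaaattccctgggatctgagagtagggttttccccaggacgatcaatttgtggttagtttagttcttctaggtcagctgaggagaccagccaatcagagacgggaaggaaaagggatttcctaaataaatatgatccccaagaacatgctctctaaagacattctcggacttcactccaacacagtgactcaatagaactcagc
Cxcl10: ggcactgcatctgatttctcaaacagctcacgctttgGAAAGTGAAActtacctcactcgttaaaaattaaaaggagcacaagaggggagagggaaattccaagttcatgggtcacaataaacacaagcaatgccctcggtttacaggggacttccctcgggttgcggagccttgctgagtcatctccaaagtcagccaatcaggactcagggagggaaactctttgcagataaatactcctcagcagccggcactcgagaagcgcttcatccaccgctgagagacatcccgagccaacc
Gbp2: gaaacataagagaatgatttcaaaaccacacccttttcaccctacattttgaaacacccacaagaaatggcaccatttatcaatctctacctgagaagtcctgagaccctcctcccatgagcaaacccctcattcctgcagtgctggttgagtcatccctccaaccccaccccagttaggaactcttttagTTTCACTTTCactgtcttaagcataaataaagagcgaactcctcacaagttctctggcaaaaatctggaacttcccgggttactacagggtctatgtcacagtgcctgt
Gbp5: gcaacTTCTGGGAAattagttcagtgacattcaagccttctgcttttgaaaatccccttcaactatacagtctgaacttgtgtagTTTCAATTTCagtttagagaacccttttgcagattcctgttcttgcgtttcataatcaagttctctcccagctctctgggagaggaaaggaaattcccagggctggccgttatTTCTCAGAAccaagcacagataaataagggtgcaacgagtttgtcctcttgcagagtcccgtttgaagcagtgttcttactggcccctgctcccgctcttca
Igtp: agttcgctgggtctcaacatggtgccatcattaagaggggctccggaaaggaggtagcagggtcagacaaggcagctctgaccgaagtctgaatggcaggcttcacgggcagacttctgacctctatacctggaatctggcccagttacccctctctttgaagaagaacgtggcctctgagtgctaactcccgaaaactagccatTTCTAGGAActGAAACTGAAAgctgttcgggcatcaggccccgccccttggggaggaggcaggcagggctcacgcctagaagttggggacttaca
Serpina3g: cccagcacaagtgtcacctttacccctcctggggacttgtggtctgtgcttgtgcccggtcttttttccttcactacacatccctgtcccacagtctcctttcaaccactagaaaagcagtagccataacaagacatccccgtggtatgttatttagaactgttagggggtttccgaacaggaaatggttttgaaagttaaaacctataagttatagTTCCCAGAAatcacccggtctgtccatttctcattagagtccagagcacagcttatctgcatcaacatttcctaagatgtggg

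The Gbp5 window held 2 GAS matches and 1 ISRE match, the Igtp window 1 of each, the Cxcl10 and Gbp2 windows 1 ISRE match and the Serpina3g window 1 GAS match, while these letters did not occur in the Cxcl9 window. Among all 32851 windows of this length, 8.30% held a GAS match and 3.44% an ISRE match. Counted per gene, 10 of the 11 GTPase genes with a window held an ISRE match and 6 a GAS match, and 12 of 19 type I interferon-stimulated genes held an ISRE match, against 3.99% of 27025 genes for ISRE and 9.55% for GAS. Of the genes higher in members than in Arg1-low Cxcl9-low macrophages, 291 of 380 had a window and 13.1% of those held an ISRE match and 11.3% a GAS match. Of the genes lower in members, 221 of 290 had one, and 4.07% held an ISRE match and 7.69% a GAS match. A match describes letters and does not show that a factor binds there.

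MHC class I genes rose together, by small amounts. Of 20 genes for class I chains, peptide transport and the immunoproteasome, 14 were higher and none lower (median 0.47). The light chain B2m stood at 3458, 3808, 3506 and 3978 CPM in Cxcl9-expressing macrophages, against 2781, 2903, 3449 and 3457 CPM in Arg1-low Cxcl9-low ones (log2 fold change 0.27 ± 0.07 (SE), adjusted p = 0.0256 by edgeR's quasi-likelihood test). The class I chain H2-D1 and the immunoproteasome subunit Psmb8 rose by 0.33 and 0.58, whereas H2-K1, higher in all 4 libraries by 0.25, missed the threshold (edgeR adjusted p = 0.0516). MHC class II did not follow. Of 12 class II genes, 1 was higher, the reductase Ifi30 (0.34 ± 0.08, edgeR adjusted p = 0.0202), and the invariant chain Cd74 stood at 5902, 6761, 9869.8 and 7429 CPM in Cxcl9-expressing macrophages, against 5657, 6393, 10243 and 10041 CPM, with members slightly higher at 1 week and lower at 2 weeks (-0.05 ± 0.07, edgeR adjusted p = 0.798). The chains H2-Aa, H2-Ab1 and H2-Eb1 gave log2 fold changes of -0.05, 0.01 and -0.07 and did not pass.

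Surface ligands and cytokines that act on T cells were among the changed genes, 7 of 19 higher and 2 lower (median 0.32). Cd274 (PD-L1), the ligand of the inhibitory receptor PD-1, stood at 784, 917, 701 and 899 CPM in Cxcl9-expressing macrophages, against 469, 516, 376 and 537 CPM in Arg1-low Cxcl9-low ones, with no overlap (log2 fold change 0.83 ± 0.08 (SE), adjusted p = 3.52e-05 by edgeR's quasi-likelihood test). A Cd274 UMI was found in 89.9, 86.7, 81.6 and 73.3% of Cxcl9-expressing macrophages, against 65.8, 64.9, 52.3 and 53.4%. The second PD-1 ligand, Pdcd1lg2, stood at 199.99, 339, 65.9 and 134 CPM in Cxcl9-expressing macrophages, against 83.2, 103, 54.4 and 123 CPM (1.18 ± 0.21, edgeR adjusted p = 0.00271). It was clearly higher in the 1 week libraries and close in the 2 week ones, so the classes overlapped. The costimulatory ligand Cd86 rose by 0.38, and Tgfb1 did not pass (0.13 ± 0.12, edgeR adjusted p = 0.652). Members of the list named after their values were seen included Cd40, the receptor through which T cells activate macrophages (0.90 ± 0.14, edgeR adjusted p = 0.00128), the Il15 receptor chain Il15ra (1.37 ± 0.26, edgeR adjusted p = 0.00455) and the cytokine subunit Il27 (1.28 ± 0.23, edgeR adjusted p = 0.00372). The lower ones were the suppressive cytokine Il10, at 4.39, 8.40, 0 and 0 CPM in Cxcl9-expressing macrophages, against 27.3, 22.4, 13.6 and 10.2 CPM (-2.13 ± 0.37, edgeR adjusted p = 0.00253), and the inhibitory ligand Vsir (-0.70 ± 0.12, edgeR adjusted p = 0.00301).

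Genes of nitric oxide production and arginine supply were higher. Nos2, the inducible nitric oxide synthase, stood at 170.1, 97.2, 147 and 106 CPM in Cxcl9-expressing macrophages, against 14.2, 25.9, 96.2 and 16.1 CPM in Arg1-low Cxcl9-low ones. The classes did not overlap, and the SOX17KO 2 week comparison value came closest (log2 fold change 2.25 ± 0.34 (SE), adjusted p = 0.001 by edgeR's quasi-likelihood test). Even so, a Nos2 UMI was seen in 18.5, 16.2, 10.2 and 21.7% of Cxcl9-expressing macrophages, against 2.9, 3.5, 3.2 and 2.8%. Slc7a2, an arginine transporter, stood at 142, 139, 108 and 77.9 CPM in Cxcl9-expressing macrophages, against 29.2, 36.5, 52.5 and 61.4 CPM (1.74 ± 0.23, edgeR adjusted p = 0.000355). Ass1, which rebuilds arginine from citrulline, stood at 106, 121, 102 and 209 CPM, against 37.4, 38.7, 33.0 and 109.7 CPM (1.48 ± 0.14, edgeR adjusted p = 4.71e-05). In the antimicrobial list, 4 of 11 genes were higher and 1, the lysozyme Lyz2, lower (-0.47 ± 0.07, edgeR adjusted p = 0.000829). The oxidase subunit Cybb rose by 0.33, while Cyba and the itaconate enzyme Acod1 did not pass (edgeR adjusted p = 0.411 and 0.326). Among complement genes, the central component C3 stood at 378, 324, 437 and 534 CPM in Cxcl9-expressing macrophages, against 138, 137, 195 and 275 CPM (1.26 ± 0.10, edgeR adjusted p = 1.73e-05), and factor B, Cfb, at 288, 250.3, 195 and 248 CPM, against 78.9, 115, 68.0 and 76.0 CPM (1.57 ± 0.13, edgeR adjusted p = 1.86e-05). The receptors C3ar1 and C5ar1 and the integrin chain Itgam were lower, so the list gave 3 higher and 3 lower of 9. Its other higher gene, the inhibitor Serping1, could not be tested without barcodes that held fibroblast genes.

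Further genes among the 15 most raised were Serpina3g, at 363, 346, 156 and 283 CPM in Cxcl9-expressing macrophages, against 98.4, 101, 20.4 and 61.4 CPM (log2 fold change 2.04 ± 0.14 (SE), adjusted p = 6.68e-06 by edgeR's quasi-likelihood test), and Ly6i, a surface protein of the Ly6 family, at 174, 128, 309 and 294 CPM, against 33.5, 41.8, 105 and 148 CPM (1.73 ± 0.17, edgeR adjusted p = 6.61e-05). The rest were the aminopeptidase Anpep, the matrix protease Mmp25, the nuclease Dnase1l3, the actin-binding Cnn3 and the VEGF receptor Flt1, with log2 fold changes of 1.66, 1.63, 1.52, 1.51 and 1.44, and the collagens Col1a2 and Col3a1. The collagens moved with a few barcodes. The summed level of 5 fibroblast markers (Col1a1, Col1a2, Col3a1, Dcn and Pdgfra) was 1029, 116, 219 and 7.1 CPM in Cxcl9-expressing macrophages, against 104, 65.5, 24.3 and 5.8 CPM in Arg1-low Cxcl9-low ones, although the sort should remove CD45-negative fibroblasts. Of the members, 10, 3, 1 and 0 barcodes held 3 or more of these UMIs, and 311 of 346 in the SOX17KO 1 week library held none. Without such barcodes 378 of 8815 genes were higher (4.29%) and 342 lower (3.88%), and Col1a2 and Col3a1 could not be tested. Their part in the difference of other genes was measured by that fit, in which Nos2, Cxcl10 and Gbp2 gave log2 fold changes of 2.26, 1.496 and 1.33. In the full fit, Col3a1 had an adjusted p of 0.0669 by edgeR's quasi-likelihood test without the SOX17KO 1 week library.

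**Figure D2:**
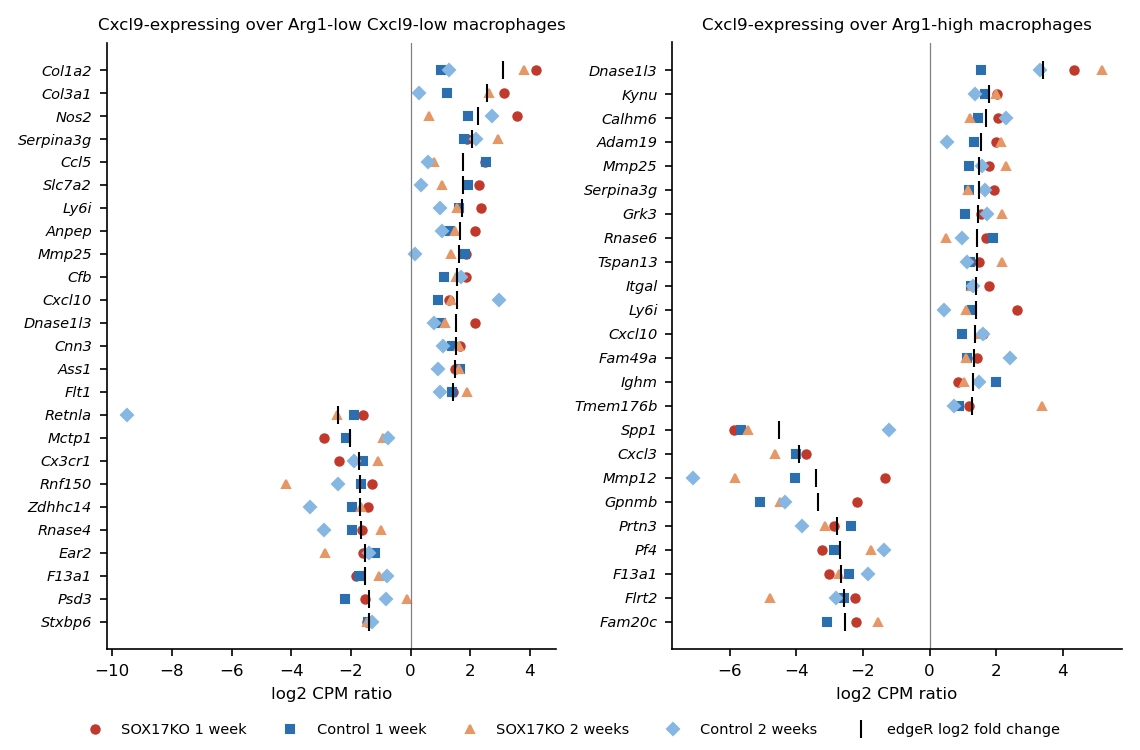
Log2 CPM ratio of Cxcl9-expressing macrophages over Arg1-low Cxcl9-low macrophages (left) and over Arg1-high macrophages (right) for the genes with the largest called changes, 1 symbol per library and a bar at edgeR's log2 fold change. Serpina3g and Cxcl10 lie right of 0 in all 4 libraries of both panels, and F13a1 lies left of 0 in all of them.

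Genes of resident and of lipid-handling macrophages were lower in members. Of 14 resident macrophage genes, 11 were lower and none higher (median -1.16). Cx3cr1, the fractalkine receptor of resident gut macrophages, stood at 11.2, 29.4, 53.9 and 17.7 CPM in Cxcl9-expressing macrophages, against 58.9, 89.5, 115 and 65.8 CPM in Arg1-low Cxcl9-low ones, with no overlap (log2 fold change -1.74 ± 0.20 (SE), adjusted p = 0.000158 by edgeR's quasi-likelihood test). Selenop, a selenium carrier, stood at 296, 329, 375 and 237 CPM, against 758, 822, 809 and 402 CPM (-1.16 ± 0.10, edgeR adjusted p = 2.18e-05). Aif1 and Fcgr1 did not pass (edgeR adjusted p = 0.0865 and 0.104). The efferocytosis receptor Mertk, chosen after its values were seen, stood at 35.9, 42.6, 29.96 and 17.7 CPM in Cxcl9-expressing macrophages, against 67.8, 77.0, 96.2 and 54.1 CPM (-0.997 ± 0.17, edgeR adjusted p = 0.002). Of 22 suppressive and lipid-associated genes, 13 were lower and 1, the protease Mmp14, higher. The lipid carrier Apoe stood at 1239, 1339, 1813 and 1199.8 CPM in Cxcl9-expressing macrophages, against 3049, 3899.5, 3488 and 2685 CPM, with no overlap (-1.22 ± 0.08, edgeR adjusted p = 5.91e-06). The mannose receptor Mrc1 stood at 372, 622, 213 and 159 CPM, against 856, 1045, 446 and 385 CPM (-1.001 ± 0.11, edgeR adjusted p = 9.8e-05). Retnla, a secreted product of macrophages under interleukin 4, stood at 276, 254, 366 and 3.54 CPM in Cxcl9-expressing macrophages, against 825, 945, 2013 and 2571 CPM (-2.43 ± 0.42, edgeR adjusted p = 0.00263). Its value in Control at 2 weeks was far below the other 3, and its adjusted p was 0.222 by DESeq2. The cathepsin Ctsb fell by 0.41 on the log2 scale, and Lgals3 and Fabp5 did not pass. F13a1, a coagulation factor chain of monocytes and resident macrophages, stood at 89.8, 106, 77.9 and 84.9 CPM in Cxcl9-expressing macrophages, against 317, 351, 162 and 148 CPM (-1.52 ± 0.15, edgeR adjusted p = 4.71e-05). The other genes of the 10 most lowered were Mctp1, Rnf150, Zdhhc14, Rnase4, Ear2, Psd3 and Stxbp6, with log2 fold changes between -2.02 and -1.39.

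Monocyte genes split. Of 14, 5 were higher and 3 lower (median -0.11). Plac8, an abundant monocyte transcript, stood at 3728, 3607, 2699.7 and 4215 CPM in Cxcl9-expressing macrophages, against 2418, 2206, 1254 and 2982 CPM in Arg1-low Cxcl9-low ones (log2 fold change 0.76 ± 0.08 (SE), adjusted p = 9.8e-05 by edgeR's quasi-likelihood test), whereas the chemokine receptor Ccr2, at 792, 802, 1091 and 1139.7 CPM against 924, 868, 986 and 1157 CPM, did not pass (-0.03 ± 0.08, edgeR adjusted p = 0.91). S100a4 and S100a6 did not pass either. Inflammatory cytokine genes were mostly level, with 2 of 12 higher, the prostaglandin synthase Ptgs2 (0.61 ± 0.07, edgeR adjusted p = 0.000104) and the interleukin 1 antagonist Il1rn (0.65 ± 0.09, edgeR adjusted p = 0.000387). The most abundant of them, Il1b, stood at 3966, 5017, 4919.9 and 2913 CPM in Cxcl9-expressing macrophages, against 4154, 4347, 4150.1 and 3678 CPM, with overlap (0.05 ± 0.08, edgeR adjusted p = 0.865). Glycolysis and hypoxia genes rose together, 14 of 16 higher and none lower (median 0.48). The glycolytic kinases Pgk1 and Pkm rose by 0.48 and 0.47, Ldha by 0.42 and Gapdh by 0.32. No gene of 12 for proliferation was called in either direction (2 at an unadjusted p under 0.05 by edgeR, 0 called by DESeq2), and 1 of 15 dissociation stress and immediate early genes was lower.

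**Figure D3:**
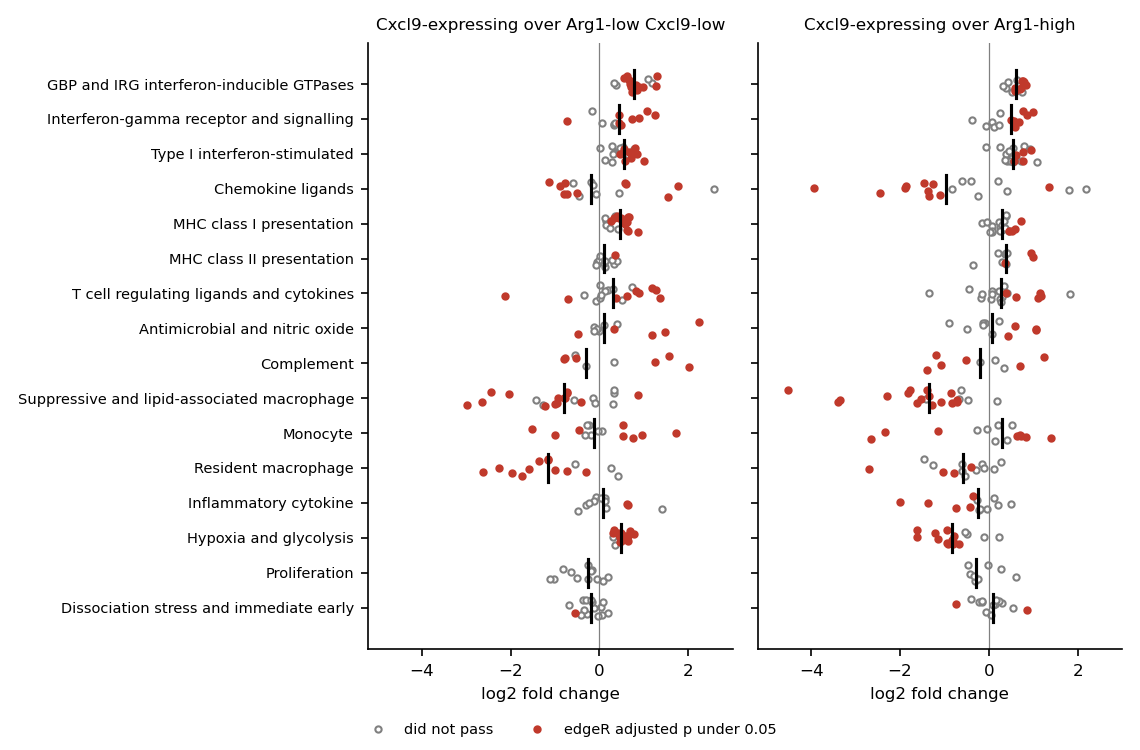
EdgeR log2 fold change of each gene of 16 lists, Cxcl9-expressing over Arg1-low Cxcl9-low macrophages (left) and over Arg1-high macrophages (right), filled where edgeR's adjusted p was under 0.05, with a bar at the list's median. The GTPase list has its median at 0.78 and 0.62, and the hypoxia and glycolysis list lies right of 0 on the left (0.48) and left of 0 on the right (-0.82).

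Arg1-high macrophages gave a different set of neighbours. Against them the interferon-inducible GTPases were again higher, 8 of 16 with none lower (median 0.62), with Gbp2 at 2004, 1884, 1393 and 2283 CPM in Cxcl9-expressing and 853, 1149, 1095 and 1320.3 CPM in Arg1-high macrophages (log2 fold change 0.73 ± 0.12 (SE), adjusted p = 0.00612 by edgeR's quasi-likelihood test). Irf8 rose by 0.69 on the log2 scale, and Irf1 passed here (0.50 ± 0.10, edgeR adjusted p = 0.0124). Cxcl10 stood at 1853, 2199, 668 and 1264 CPM in Cxcl9-expressing macrophages, against 608, 1113, 235 and 412 CPM in Arg1-high ones, higher within every library (1.36 ± 0.11, edgeR adjusted p = 0.000167). Ccl5 was higher at 1 week and lower at 2 weeks and did not pass (0.21 ± 0.30, edgeR adjusted p = 0.793). Of 18 chemokine genes, 9 were lower and 1, Cxcl10, higher (median -0.96). Cxcl3, a neutrophil attractant, stood at 28.3, 14.4, 8.99 and 0 CPM in Cxcl9-expressing macrophages, against 370.3, 231, 223 and 3.57 CPM in Arg1-high ones (-3.93 ± 0.17, edgeR adjusted p = 3.52e-06). Ccl24 stood at 1144, 1626, 165 and 269 CPM, against 3834, 3572, 793 and 1461 CPM (-1.85 ± 0.19, edgeR adjusted p = 0.000348), and Ccl6 fell by 1.25 on the log2 scale.

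The largest gap to Arg1-high macrophages was in Spp1, osteopontin, a secreted matrix protein of tumour macrophages. It stood at 20.8, 34.8, 5.99 and 265 CPM in Cxcl9-expressing macrophages, against 1204, 1747, 262 and 623 CPM in Arg1-high ones (log2 fold change -4.51 ± 0.69 (SE), adjusted p = 0.00367 by edgeR's quasi-likelihood test). The Control 2 week value was far above those of the other 3 member libraries. Of 21 suppressive and lipid-associated genes 16 were lower and none higher (median -1.35), among them the most abundant, Apoe, Lgals3, Ctsb and Fabp5, which fell by 0.85, 0.73, 0.82 and 0.72 on the log2 scale. The elastase Mmp12 stood at 44.7, 10.2, 24.0 and 3.54 CPM in Cxcl9-expressing macrophages, against 113, 168, 1364 and 487 CPM (-3.40 ± 0.56, edgeR adjusted p = 0.00477). Pf4, a platelet and macrophage chemokine, stood at 276, 222, 234 and 24.8 CPM, against 2572, 1611, 782 and 64.2 CPM (-2.70 ± 0.23, edgeR adjusted p = 0.000167). F13a1, Gpnmb, Prtn3, Flrt2 and Fam20c were also among the 10 most lowered genes. Hypoxia and glycolysis genes lay on the other side here, with 12 of 16 lower and none higher (median -0.82). Pgk1 stood at 446, 448, 530.3 and 718 CPM in Cxcl9-expressing macrophages, against 983, 950.1, 1458 and 1386 CPM in Arg1-high ones (-1.21 ± 0.10, edgeR adjusted p = 0.000167), so members lay between the 2 other classes. Across both comparisons 24 genes were higher than in Arg1-low Cxcl9-low and lower than in Arg1-high macrophages, among them Slc7a2, Ccl24, Bnip3, Ero1l, Ldha and Ptgs2, and 2 went the opposite way.

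Nos2 did not separate the members from Arg1-high macrophages, standing at 170.1, 97.2, 147 and 106 CPM in Cxcl9-expressing and 101, 223, 689.6 and 285 CPM in Arg1-high macrophages (log2 fold change -0.90 ± 0.38 (SE), adjusted p = 0.223 by edgeR's quasi-likelihood test). Its share of positive cells was 18.5, 16.2, 10.2 and 21.7% of Cxcl9-expressing and 21.6, 30.7, 43.9 and 20.6% of Arg1-high macrophages. Ass1, Cfb and C3 were higher in members here too, by 1.06, 1.25 and 0.70. Cd274 stood at 784, 917, 701 and 899 CPM in Cxcl9-expressing macrophages, against 525, 694, 599 and 632 CPM in Arg1-high ones, with no overlap (0.38 ± 0.09, edgeR adjusted p = 0.0341), and Pdcd1lg2 did not pass (-0.14 ± 0.19, edgeR adjusted p = 0.761). Cd40 rose by 1.10 (edgeR adjusted p = 0.00198). MHC class I genes gave 4 of 20 higher and class II genes 3 of 10, namely Ciita, H2-DMb2 and Ifi30. Lyz2, lower than in Arg1-low Cxcl9-low macrophages, was higher than in Arg1-high ones (0.59 ± 0.07, edgeR adjusted p = 0.000683). The most raised genes were Dnase1l3, a nuclease that digests chromatin from dead cells, at 87.0, 24.6, 183 and 35.4 CPM in Cxcl9-expressing macrophages, against 4.29, 8.47, 5.11 and 3.57 CPM (3.39 ± 0.44, edgeR adjusted p = 0.00146), then Kynu, Calhm6, Adam19, Mmp25, Serpina3g, Grk3, Rnase6, Tspan13, Itgal, Ly6i, Cxcl10, Fam49a, Ighm and Tmem176b with log2 fold changes from 1.27 to 1.78. Rnase6 and Tmem176b missed the threshold without the SOX17KO 1 week library (edgeR adjusted p = 0.0512 and 0.0824). Ighm is also in the B or plasma cell list, of which it held 124 of 136, 110 of 115, 14 of 15 and 14 of 14 UMIs in members. The cell of origin of Ighm was not tested.

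Dendritic cell markers moved with this contrast. Of 6 tested, 3 were higher in members than in Arg1-high macrophages, Cadm1, Dpp4 and Ccr7, by 2.04, 1.83 and 1.64. The summed level of the dendritic cell list was 117, 119, 86.9 and 46.0 CPM in Cxcl9-expressing macrophages, against 24.7, 63.4, 11.9 and 116 CPM in Arg1-high and 43.7, 38.0, 54.4 and 178 CPM in Arg1-low Cxcl9-low macrophages. Some of these sums lean on 1 barcode. It held 131 of 293 UMIs in SOX17KO members at 1 week and 24 of 29 at 2 weeks. In Control at 2 weeks it held 63 of 65 UMIs in Arg1-high and 60 of 122 in Arg1-low Cxcl9-low macrophages. Dnase1l3 is also known from dendritic cells, and the part of such cells in its difference was not tested beyond the gate. Leaving out barcodes with 3 or more UMIs of any list of another cell type, which removes 145 members, gave 701 genes called against Arg1-low Cxcl9-low and 830 against Arg1-high macrophages. Those held 297 of the 380 higher and 247 of the 290 lower calls against Arg1-low Cxcl9-low macrophages. Against Arg1-high macrophages they held 243 of the 267 higher and 335 of the 353 lower calls.

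Within Arg1-low gated macrophages the same genes were read across 5 levels of Cxcl9 per cell (0, 1 to 2, 3 to 5, 6 to 14, and 15 or more UMIs), leaving out barcodes with fibroblast genes. The values are a description, since cells were ordered by a readout from the same RNA, and deeper cells are likelier to reach a high count. The summed GTPase list stood at 2823, 3588, 4470.4, 5109 and 5233 CPM from the lowest to the highest level in SOX17KO at 1 week, and at 2482, 4168, 4385, 4557 and 5493 CPM in Control at 1 week. At 2 weeks it stood at 1442, 1908, 2361, 2869 and 4713 CPM in SOX17KO and at 1836, 2724, 3504, 4384 and 6245 CPM in Control. It was higher at each step in all 4 libraries. Cxcl10 climbed over all 5 levels at 1 week, with 669, 1253, 1319, 1805 and 1990 CPM in SOX17KO and 1096, 1614, 1738, 2059 and 2755 CPM in Control. Its 2 week values went up and down between levels before the highest, at 1132 CPM in SOX17KO and 1773 CPM in Control. Nos2 was highest in the top level of each library, with 202 and 352 CPM in SOX17KO and 160 CPM in both Controls. Gbp2b showed no such order. In SOX17KO at 2 weeks it stood at 98.5, 148, 101, 59.0 and 11.0 CPM. Some bins at 2 weeks held under 20 cells, with 16 and 11 cells in SOX17KO (3 to 5 and 15 or more UMIs) and 17 and 19 in Control (3 to 5 and 6 to 14 UMIs).

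**Figure D4:**
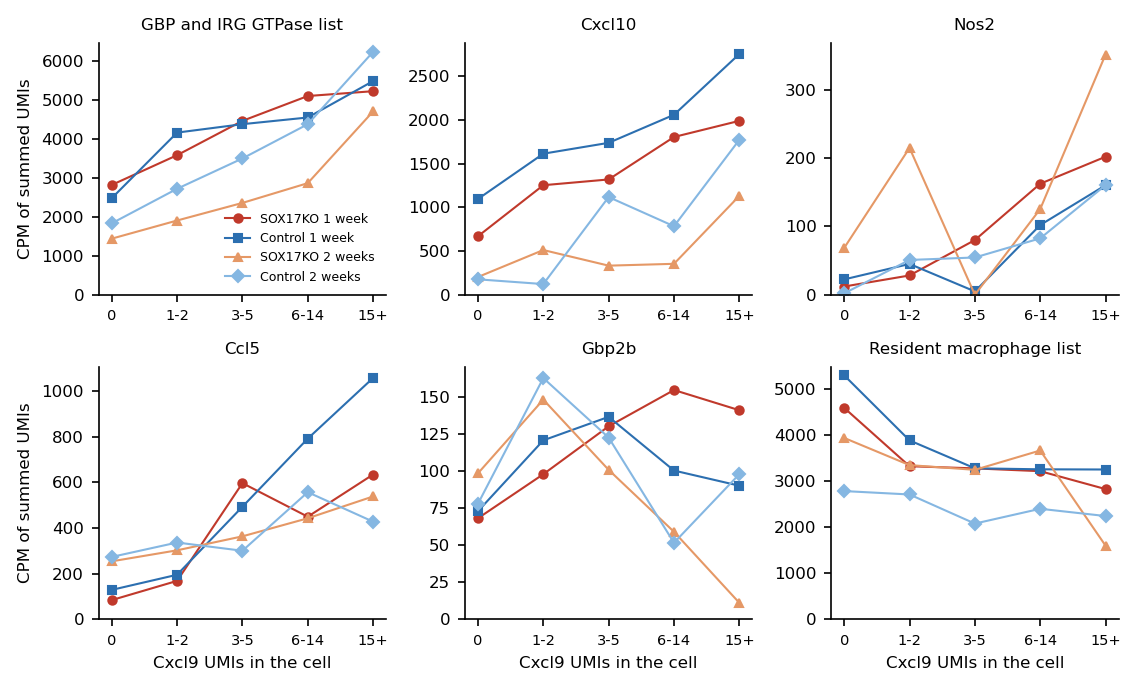
CPM of the summed interferon-inducible GTPase list, of 4 genes and of the summed resident macrophage list, by Cxcl9 UMIs in the cell, in Arg1-low gated macrophages of the 4 timed libraries. The GTPase list reaches 5233 CPM in SOX17KO and 5493 CPM in Control at 1 week in the highest level, while Gbp2b has no common order.

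Across 14 sums of class and library, with 4846 genes compared, the genes whose level followed that of Cxcl9 most closely were Cd274 (Spearman's rho 0.952), Cnn3 (0.93), Nampt (0.93), Hk3 (0.912), Sod2 (0.912), Gbp2 (0.903), Cfb (0.899), Slamf8 (0.895), H2-T23 (0.89) and Nsd2 (0.881). The gate that made these classes used Cxcl9 itself, so a gene higher in members tends to get a high value through that split. The sums also share libraries and depth, so these values only describe likeness.

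The third comparison asks whether Cxcl9-expressing macrophages differed between SOX17KO and Control tumours. It rests on 2 libraries of each genotype with collection time as a term, which leaves 1 residual degree of freedom. The edgeR p-values of this fit, which also gives the time comparison below, therefore rest mainly on the spread shared over genes. With all members, 44 of 7652 genes were higher in SOX17KO (0.575%) and 5 lower (0.0653%) by edgeR's quasi-likelihood test. The genes with the smallest p were known from fibroblasts. Dcn, a proteoglycan of fibroblasts, stood at 368 CPM in SOX17KO and 21.0 CPM in Control at 1 week, and 105 CPM in SOX17KO and 0 CPM in Control at 2 weeks. The fibroblast list in members stood at 1029 and 219 CPM in SOX17KO and 116 and 7.1 CPM in Control at 1 and 2 weeks, and Tnc, Sparc, Plpp3, Col3a1, Rarres2, Col1a2, Fstl1, Cald1 and Enpp2 were the next calls by p. Without the 14 members that held 3 or more fibroblast UMIs, 7 of 7545 genes were higher in SOX17KO (0.0928%) and 4 lower (0.053%). These fewer calls are described here. The count was 7 by DESeq2 with all members, 16 when members needed 5 or more Cxcl9 UMIs, and 1 without barcodes that held genes of any other cell type, so single calls below rest on the setting. Of the 11 calls, Ccl2 and Ccl7 were not called with all members (edgeR adjusted p = 0.62 and 0.0829), and the other genes named below were.

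The chemokines Ccl7, Ccl2 and Ccl8, which draw monocytes, were lower in SOX17KO members in this subset. Ccl7 stood at 219 CPM in SOX17KO and 639 CPM in Control at 1 week, and 0 CPM in SOX17KO and 42.5 CPM in Control at 2 weeks (log2 fold change -1.76 ± 0.32, edgeR adjusted p = 0.0141), at least 4.61-fold lower in SOX17KO at 2 weeks. Ccl2, the main ligand of Ccr2, stood at 363 CPM in SOX17KO and 676 CPM in Control at 1 week, and 52.2 CPM in SOX17KO and 202 CPM in Control at 2 weeks (-1.22 ± 0.25, edgeR adjusted p = 0.0381). With all members Ccl2 stood at 560.5 CPM in SOX17KO and 667 CPM in Control at 1 week, and 53.9 CPM in SOX17KO and 202 CPM in Control at 2 weeks (-0.77 ± 0.28), and 840 of its 1404 UMIs in SOX17KO at 1 week remained without the 14 members. Ccl8, which shares receptors with them, stood at 774 CPM in SOX17KO and 2075 CPM in Control at 1 week, and 0 CPM in SOX17KO and 21.2 CPM in Control at 2 weeks (-1.55 ± 0.29, edgeR adjusted p = 0.0188). SOX17KO was below Control at both times for all 3 genes. Ccl12, another ligand of Ccr2 that was not called, was named after its values were seen. With all members it stood at 199 CPM in SOX17KO and 426 CPM in Control at 1 week, and 47.9 CPM in SOX17KO and 14.2 CPM in Control at 2 weeks, so its direction differed between the times (-0.71 ± 0.34, edgeR adjusted p = 1). Inhba, a chain of activin A, was the last of the 4 lower genes, at 56.2 CPM in SOX17KO and 147 CPM in Control at 1 week, and 49.1 CPM in SOX17KO and 131 CPM in Control at 2 weeks (-1.42 ± 0.26, edgeR adjusted p = 0.0146). Of the 7 higher genes, Dnase1l3 stood at 88.2 CPM in SOX17KO and 25.1 CPM in Control at 1 week, and 187 CPM in SOX17KO and 35.4 CPM in Control at 2 weeks (1.97 ± 0.29, edgeR adjusted p = 0.0021). Lmna, which encodes nuclear lamins A and C, stood at 118 CPM in SOX17KO and 53.2 CPM in Control at 1 week, and 328 CPM in SOX17KO and 49.6 CPM in Control at 2 weeks (1.66 ± 0.29, edgeR adjusted p = 0.0128). Pot1b, a telomere-binding protein, stood at 30.7 CPM in SOX17KO and 7.95 CPM in Control at 1 week, and 159.6 CPM in SOX17KO and 28.3 CPM in Control at 2 weeks (2.15 ± 0.36, edgeR adjusted p = 0.0106). SOX17KO was above Control at both times for each. Ccl22, a chemokine of dendritic cells and some macrophages, stood at 45.4 CPM in SOX17KO and 12.2 CPM in Control at 1 week, and 73.7 CPM in SOX17KO and 0 CPM in Control at 2 weeks (2.36 ± 0.45, edgeR adjusted p = 0.0194), at least 6.94-fold higher in SOX17KO at 2 weeks. Ccl22 had 24 UMIs in SOX17KO members at 2 weeks. It is also in the dendritic cell list, which had 29 UMIs over all 49 SOX17KO members at 2 weeks. A single barcode held 24 of those 29 and 44 members held none, so the 2 week value of Ccl22 rests mainly on 1 barcode. Mmp12 and Saa3 were also among the 7, with log2 fold changes of 2.24 and 2.20.

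Counts of calls by genotype in the interferon lists have to be set beside 0.575% higher and 0.0653% lower over all genes, at which lists of this size hold few or no calls. None of the 16 GTPase genes, 13 interferon-gamma signalling genes or 20 MHC class I genes was called by edgeR with all members (1, 2 and 1 at an unadjusted p under 0.05), nor by DESeq2, with median log2 fold changes, SOX17KO over Control, of -0.20, -0.16 and -0.23. Type I interferon-stimulated genes had a median of -0.53, all 20 tested were below 0 (19 of 20 by DESeq2, median -0.56), and 2 were called by edgeR with all members, Isg15 and Rsad2, but none by DESeq2. Isg15, an ubiquitin-like modifier, stood at 422 CPM in SOX17KO and 802 CPM in Control at 1 week, and 177 CPM in SOX17KO and 322 CPM in Control at 2 weeks (-0.94 ± 0.22, edgeR adjusted p = 0.0469), and without the 14 members its adjusted p was 0.0963 by edgeR. Osm, a cytokine of the interleukin 6 family, stood at 178 CPM in SOX17KO and 332 CPM in Control at 1 week, and 261 CPM in SOX17KO and 527 CPM in Control at 2 weeks (-0.98 ± 0.21, edgeR adjusted p = 0.0314, and 0.0963 without them). Both were lower in SOX17KO at both times. Genes with 1 direction in both pairs that did not pass included Spp1, at 20.8 CPM in SOX17KO and 34.8 CPM in Control at 1 week, and 5.99 CPM in SOX17KO and 265 CPM in Control at 2 weeks, and Pdcd1lg2, at 199.99 CPM in SOX17KO and 339 CPM in Control at 1 week, and 65.9 CPM in SOX17KO and 134 CPM in Control at 2 weeks (edgeR adjusted p = 0.0675 and 0.187).

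The fourth comparison sets members at 2 weeks against those at 1 week, with genotype as a term. Each time is 1 pair of libraries, so time and the processing of those libraries cannot be told apart, and the 2 week members are 49 SOX17KO and 60 Control cells. Of 7652 genes, 63 were higher at 2 weeks (0.823%) and 99 lower (1.29%) by edgeR's quasi-likelihood test. The count of 162 was 26 by DESeq2, 20 when members needed 5 or more Cxcl9 UMIs, 83 without barcodes that held genes of other cell types and 187 without those that held fibroblast genes.

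Chemokine ligands were among the genes lower at 2 weeks. Of 17 tested, 8 were lower at 2 weeks and 1, Ccl9, higher (median -0.83). Ccl24 stood at 165 CPM in SOX17KO and 269 CPM in Control at 2 weeks, against 1144 CPM in SOX17KO and 1626 CPM in Control at 1 week (log2 fold change -2.72 ± 0.23, edgeR adjusted p = 2.86e-07). Ccl2 stood at 53.9 CPM in SOX17KO and 202 CPM in Control at 2 weeks, against 560.5 CPM in SOX17KO and 667 CPM in Control at 1 week (-2.43 ± 0.30, edgeR adjusted p = 4.52e-05). Ccl8 stood at 0 CPM in SOX17KO and 21.2 CPM in Control at 2 weeks, against 736 CPM in SOX17KO and 2037 CPM in Control at 1 week, at least 81.9-fold lower in SOX17KO. The 2 week values lay below both 1 week values for each of these, and Ccl7 and Ccl12 behaved likewise. Cxcl10 stood at 668 CPM in SOX17KO and 1264 CPM in Control at 2 weeks, against 1853 CPM in SOX17KO and 2199 CPM in Control at 1 week (-1.15 ± 0.22, edgeR adjusted p = 0.00434), and Cxcl2 and Cxcl1 were the remaining lower ones. Of 20 type I interferon-stimulated genes, 8 were lower and none higher (median -1.09). Ifit2, an RNA-binding antiviral protein, stood at 18.0 CPM in SOX17KO and 35.4 CPM in Control at 2 weeks, against 85.8 CPM in SOX17KO and 182 CPM in Control at 1 week (-2.34 ± 0.34, edgeR adjusted p = 0.000356). Oasl1, Irf7, Zbp1, Usp18, Rtp4, Isg15 and Bst2 were the others. The GTPase list had no call among 16 genes by edgeR or DESeq2 (median -0.42, 5 at an unadjusted p under 0.05 by edgeR), and 1 of 13 interferon-gamma signalling genes was lower, Socs1 (-1.30 ± 0.30, edgeR adjusted p = 0.0213). S100a8 and S100a9, alarmins of neutrophils and monocytes, were also lower. S100a9 was at 0 in both 2 week libraries, against 156 CPM in SOX17KO and 185 CPM in Control at 1 week, at least 17.4-fold lower in SOX17KO and at least 17.5-fold lower in Control. The whole neutrophil list moved with them, at 102 CPM in SOX17KO and 74.3 CPM in Control at 2 weeks, against 504 and 455 CPM at 1 week, and its part in the result was not tested.

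The genes that were higher at 2 weeks came from several programmes. Vegfa, an angiogenic factor, stood at 339 CPM in SOX17KO and 279.6 CPM in Control at 2 weeks, against 82.2 CPM in SOX17KO and 72.0 CPM in Control at 1 week (log2 fold change 1.98 ± 0.23, edgeR adjusted p = 2.66e-05). Cxcr4, the receptor of Cxcl12, stood at 428 CPM in SOX17KO and 368 CPM in Control at 2 weeks, against 115 CPM in SOX17KO and 82.2 CPM in Control at 1 week (2.00 ± 0.23, edgeR adjusted p = 1.75e-05). Bach2, a transcriptional repressor, stood at 159 CPM in SOX17KO and 120.3 CPM in Control at 2 weeks, against 26.7 CPM in SOX17KO and 21.0 CPM in Control at 1 week (2.52 ± 0.29, edgeR adjusted p = 1.75e-05). Every 2 week value was above every 1 week value for these 3 genes. Pid1, Hspa1b, Grasp, Rgs1, Gm48099, Ldlrad4 and Abca1 were the next by p, with log2 fold changes from 1.59 to 2.60. A pair of hypoxia genes rose, the prolyl hydroxylase Egln3 (2.33 ± 0.36, edgeR adjusted p = 0.000714) and Ero1l (1.08 ± 0.23, edgeR adjusted p = 0.0137). Of the ligands and receptors that bear on T cells, Pdcd1lg2 stood at 65.9 CPM in SOX17KO and 134 CPM in Control at 2 weeks, against 199.99 CPM in SOX17KO and 339 CPM in Control at 1 week (-1.48 ± 0.26, edgeR adjusted p = 0.0022), and the inhibitory receptor Havcr2 at 179.8 CPM in SOX17KO and 184 CPM in Control at 2 weeks, against 74.2 CPM in SOX17KO and 66.6 CPM in Control at 1 week (1.34 ± 0.24, edgeR adjusted p = 0.00352). Mrc1, Fabp5 and Folr2 of the suppressive and lipid-associated list were lower at 2 weeks. Dissociation stress and immediate early genes moved in the same contrast, with Fos, Atf3, Hspa1a and Hspa1b higher and Egr1 lower of 15. Fos stood at 2040.5 CPM in SOX17KO and 2059.9 CPM in Control at 2 weeks, against 1019 CPM in SOX17KO and 813 CPM in Control at 1 week. Their part in the other differences was not tested.

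**Figure D5:**
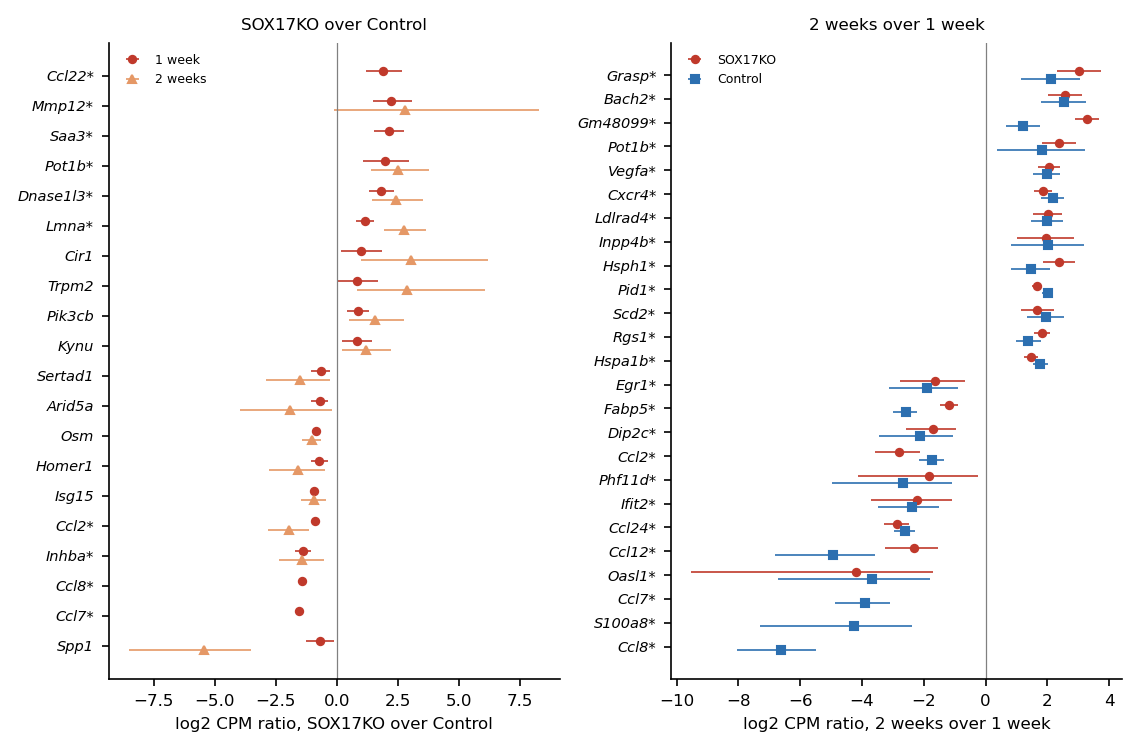
Log2 CPM ratio within Cxcl9-expressing macrophages, left for SOX17KO over Control at 1 week and at 2 weeks, right for 2 weeks over 1 week in SOX17KO and in Control, without the 14 members that held fibroblast genes. Lines are 95% counting intervals, an asterisk marks an edgeR adjusted p under 0.05, and a symbol is missing where a library had 0 UMIs. Dnase1l3 and Lmna lie right of 0 and Inhba and Ccl2 left of 0 at both times, and Vegfa and Cxcr4 lie right of 0 and Ccl24 and Ccl2 left of 0 in both genotypes.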

How the data were processed

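The authors deposited UMI counts per gene and barcode for 6 10x Genomics libraries (32285 genes, build mm10). The submitters' processing notes name Cell Ranger 6.0.1, while the file headers name 7.0.1. Barcodes were gated, and counts were summed per library and class. Members, lists and tests were chosen with earlier results of these data known.

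Sums were tested with edgeR 4.0.16 in R 4.3.3 (TMM, filterByExpr, quasi-likelihood, Benjamini-Hochberg adjustment over all genes tested, threshold 0.05). Class contrasts used the library as a block over 4 libraries with at least 20 cells per class. Genotype and time were fitted together. The 16 gate genes stayed in library sizes and out of the tests. DESeq2 1.42.0 was the alternative. The fits were tested on simulated data. Shares used scipy 1.17.1.

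Genes named in class contrasts were the 15 with the largest positive and 10 with the largest negative log2 fold change among those called, with 1 direction in every library and at least 50 CPM in the higher class. Genotype and time contrasts name up to 10 calls each way by p. After those come up to 8 genes each way by the smaller of the 2 pair ratios. Lists name up to 4 members by mean CPM, and likeness names 10 genes. A few genes these rules name are not reported here. Other genes were named after their values were seen. Intervals cover counting error only. Doublets were not removed, but leaving out barcodes with top simulated-doublet scores was an alternative, as were other cell limits, thresholds and left-out libraries. The comparison of class differences between genotypes or times was added after values were seen.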

Additional observations from a re-analysis of the deposited data

Results flagged for a closer look

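The difference between Cxcl9-expressing macrophages and a comparison class was itself compared between SOX17KO and Control and between 2 weeks and 1 week, in an edgeR quasi-likelihood fit over the 4 timed libraries with 2 residual degrees of freedom. The genes below are those of the text whose class difference changed with genotype or time, given as the difference of log2 fold changes ± SE. Each rests on 1 library per genotype and time. Over all genes, 15 of 8972 class differences from Arg1-low Cxcl9-low macrophages and 33 of 8583 from Arg1-high macrophages changed with genotype, and 14 of each changed with time. Without barcodes with fibroblast genes, 15 of 8815 and 19 of 8401 changed with genotype, and 37 and 96 with time.

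The class difference of fibroblast genes was more positive in SOX17KO than in Control. Against Arg1-low Cxcl9-low macrophages, SOX17KO minus Control was 3.10 ± 0.45 (edgeR adjusted p = 0.00143) for Col1a2 and 3.54 ± 0.40 (edgeR adjusted p = 4.64e-05) for Dcn. Against Arg1-high macrophages it was 2.64 ± 0.36 (edgeR adjusted p = 0.00607) for Col1a1, 3.24 ± 0.36 (edgeR adjusted p = 0.000826) for Col1a2, 4.11 ± 0.39 (edgeR adjusted p = 0.000212) for Col3a1 and 4.25 ± 0.36 (edgeR adjusted p = 0.000209) for Dcn. Against Arg1-high macrophages at 1 week, members were higher in SOX17KO and lower in Control, with log2 ratios for Col1a1, Col1a2, Col3a1 and Dcn of 1.26, 1.404, 1.49 and 1.63 in SOX17KO, against -1.42, -1.82, -2.74 and -2.62 in Control. The same fibroblast transcripts lay in 10 and 1 member barcodes of the SOX17KO libraries at 1 and 2 weeks and in 3 and 0 of the Control libraries. Among Arg1-high macrophages at 1 week they lay in 9 barcodes in SOX17KO and 5 in Control. A single barcode held 1171 of the 1914 fibroblast list UMIs of those Control cells, and 1 held 840 of 2579 in SOX17KO members. The 1 week ratios of both genotypes therefore rest mainly on few barcodes, and the cell of origin of these transcripts was not tested.

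The nuclease Dnase1l3 was higher in members than in Arg1-high macrophages in all 4 libraries, and by more in SOX17KO, with log2 ratios of 4.34 and 5.16 in SOX17KO against 1.54 and 3.31 in Control at 1 and 2 weeks, a difference of 2.63 ± 0.49 (edgeR adjusted p = 0.0384). The elastase Mmp12 was lower in members than in Arg1-high macrophages in all 4 libraries, by less in SOX17KO (2.56 ± 0.40 (edgeR adjusted p = 0.012)) and by more at 2 weeks (-4.36 ± 0.43 (edgeR adjusted p = 0.00152)). Against Arg1-low Cxcl9-low macrophages its log2 ratios were 1.18 and -2.36 in SOX17KO and -1.87 and -3.43 in Control at 1 and 2 weeks, so SOX17KO minus Control was 2.84 ± 0.49 (edgeR adjusted p = 0.00756) and 2 weeks minus 1 week -3.35 ± 0.54 (edgeR adjusted p = 0.00385). Osteopontin, Spp1, stood at 265 CPM in members of Control at 2 weeks and at no more than 34.8 CPM in the other 3 libraries. Its class difference from Arg1-low Cxcl9-low macrophages changed by -2.27 ± 0.45 (edgeR adjusted p = 0.0332) with genotype and by 2.74 ± 0.49 (edgeR adjusted p = 0.0137) with time, and that from Arg1-high macrophages by 3.505 ± 0.51 (edgeR adjusted p = 0.0193) with time.

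Chemokine genes changed their class difference with time. Ccl5 was above Arg1-low Cxcl9-low macrophages in all 4 libraries, by less at 2 weeks (-1.86 ± 0.20 (edgeR adjusted p = 2.59e-05)). Against Arg1-high macrophages its log2 ratios were -0.75 in SOX17KO and -0.67 in Control at 2 weeks, against 1.22 in SOX17KO and 0.86 in Control at 1 week (-1.79 ± 0.20 (edgeR adjusted p = 0.00322)). The class difference of Pf4 was more positive at 2 weeks, by 1.63 ± 0.28 (edgeR adjusted p = 0.00714) against Arg1-low Cxcl9-low and 1.45 ± 0.24 (edgeR adjusted p = 0.0348) against Arg1-high macrophages. Its log2 ratios to Arg1-low Cxcl9-low macrophages were 0.14 in SOX17KO and -1.65 in Control at 2 weeks, against -1.82 in SOX17KO and -2.38 in Control at 1 week. Ccl8 stood at 0 CPM in SOX17KO and 21.2 CPM in Control members at 2 weeks, against 112 CPM in SOX17KO and 168 CPM in Control Arg1-low Cxcl9-low macrophages (-4.43 ± 0.40 (edgeR adjusted p = 1.94e-06)).

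Neutrophil genes and Ccr7, a receptor of migratory dendritic cells, were also lower in members at 2 weeks relative to Arg1-low Cxcl9-low macrophages, by -5.40 ± 0.72 (edgeR adjusted p = 0.000474) for S100a8, -10.43 ± 1.15 (edgeR adjusted p = 3.68e-05) for S100a9, -8.95 ± 1.67 (edgeR adjusted p = 0.0204) for Retnlg and -5.50 ± 0.87 (edgeR adjusted p = 0.00385) for Ccr7. Each had 0 UMIs in the members of 1 or both 2 week libraries, so these fitted values depend on the prior count and are no bounds. S100a9 in Arg1-low Cxcl9-low macrophages stood at 457 CPM in SOX17KO and 14.6 CPM in Control at 2 weeks, against 417 CPM in SOX17KO and 216 CPM in Control at 1 week. The SOX17KO 2 week comparison value rests on few barcodes. Of 218 such cells, 161 held no UMI of the neutrophil list, and 1 held 469 of its 1216 UMIs. Retnlg stood at 0 CPM in both classes in Control at 2 weeks. The part of these barcodes in the differences was not tested.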

How the results depend on the processing

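Of 670 genes called against Arg1-low Cxcl9-low macrophages and 620 against Arg1-high macrophages, 1022 and 1008 were called with no filter on low counts, and leaving out 1 library gave 330 to 664 and 229 to 607. The other alternatives gave 448 to 725 and 482 to 832, within 1.5 times the reported counts. The 49 genotype calls became 7 by DESeq2, 160 with no filter, 80 without top doublet scores, 16 with members of at least 5 Cxcl9 UMIs, 11 without barcodes with fibroblast genes, 1 without barcodes with genes of other cell types and 1 with no collection term. The 162 calls by time became 26 by DESeq2, 314 with no filter, 293 without top doublet scores, 297 at no more than 5% mitochondrial UMIs, 20 with members of at least 5 Cxcl9 UMIs, 83 without barcodes with genes of other cell types and 13 with no genotype term. The cause of these moves was not tested. No gene was called in the opposite direction under any of these settings. The mean log2 odds ratio of the share over 3 pairs, SOX17KO over Control, was 0.42 with 0.5 added to each count, 0.83 at 1 or more Cxcl9 UMIs, -0.10 at 5 or more and 0.67 of all barcodes past the limits, where the 2 week direction turned. Leaving out 1 pair gave -0.21 to 0.79. The mean log2 ratio of the Cxcl9 level was 0.97 with 0.5 UMIs added, and -0.36 to 1.86 when 1 pair was left out. As a mean of CPM per cell it was -0.40, over the 2 timed pairs, where the level itself gave -0.36. Every positive mean includes the untimed pair, whose value the added 0.5 sets. Genotype and time without 1 collection have no residual degree of freedom, and all 6 libraries could not be fitted, since untimed Control held 0 members. Both alternatives without such barcodes were chosen after seeing the data. The 2 week members, 49 and 60 cells in SOX17KO and Control, limit what can be detected there.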

Other observations

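Markers of other cell types were read in the members as fixed lists. Of 12 lymphocyte genes, 5 could be tested against Arg1-low Cxcl9-low macrophages and 1 was lower, with none higher (median log2 fold change -1.23). Over all genes tested, 3.23% were lower and 4.24% higher. Of 6 neutrophil genes, 5 could be tested against each class and none was called by edgeR's quasi-likelihood test or by DESeq2, with 3 at an unadjusted p under 0.05 by edgeR against Arg1-low Cxcl9-low and 2 against Arg1-high macrophages. By time, 2 of 4 neutrophil genes tested and 4 of 6 stromal, epithelial and mast cell genes tested were lower at 2 weeks and none was higher. Over all genes tested, 1.29% were lower and 0.823% higher. Barcodes with fibroblast genes were 10 and 3 of the SOX17KO and Control members at 1 week, and 1 and 0 at 2 weeks. The collagens Col1a2 and Col3a1, both lower at 2 weeks, could not be tested without such barcodes. In the untimed pair, 1 of 58 gated macrophages in SOX17KO and 0 of 61 in Control were members, and they enter no comparison across genes.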
